A study of Homo sapiens with 4 samples.

Results

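DLX6-AS1, SOX2-OT, RMST and MIAT are 4 long non-coding RNA (lncRNA) genes known from the nervous system, and all 4 were measured in HUH7, an established line of human hepatocellular carcinoma cells. Their members here were every transcript in the deposited table whose identifier, without its version number, belongs to one of these genes in the GENCODE annotation (release 44, placed on the human build GRCh37). This gave 47 of the 19835 transcripts in the table: 6 of DLX6-AS1, 18 of SOX2-OT, 6 of RMST and 17 of MIAT. The study sequenced RNA of untreated HUH7 cells, grown in medium with serum, to choose lncRNAs for a knockdown screen. Its 4 libraries (replicates 1 to 4) form 1 group, with no treated or control arm. Nothing in the labels says that they came from separate cultures, so a p-value here covers no more than library-to-library spread, possibly technical. Levels are FPKM, fragment numbers corrected for transcript length, so that genes of different length can be set side by side. They are also corrected for the fragments each library placed on the reference. That reference held non-coding transcripts alone, so these FPKM are not on the scale of FPKM over all transcripts. Errors are SD over n = 4 libraries.

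DLX6-AS1, also called Evf2 in the mouse, is transcribed against DLX6, a homeobox gene of forebrain interneurons, and its mouse counterpart takes part in the control of the Dlx5 and Dlx6 genes. SOX2-OT is a long locus whose introns hold SOX2, the transcription factor of neural stem cells. RMST is a lncRNA of neural progenitors that binds SOX2 protein during neurogenesis, and MIAT, called Gomafu in the mouse, is a nuclear RNA of neurons that carries TACTAAC repeats bound by the splicing factor SF1.

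All 4 genes had transcripts above 0 in every library, and the highest, DLX6-AS1, was 99.8-fold higher than the lowest, MIAT, within a library. DLX6-AS1 had 304.86, 333.54, 314.06 and 283.17 FPKM in replicates 1 to 4, with a mean of 308.9 ± 20.9 FPKM. SOX2-OT had 112.74, 149.05, 77.36 and 75.17 FPKM, with a mean of 103.6 ± 34.9 FPKM. RMST had 82.07, 85.44, 66.23 and 81.90 FPKM, with a mean of 78.9 ± 8.61 FPKM. MIAT stood far below the others. Its levels were 3.11, 2.51, 2.69 and 4.34 FPKM, with a mean of 3.16 ± 0.824 FPKM. In bulk RNA, a low level in all cells and a higher level in few cells cannot be told apart.

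**Figure D1:**
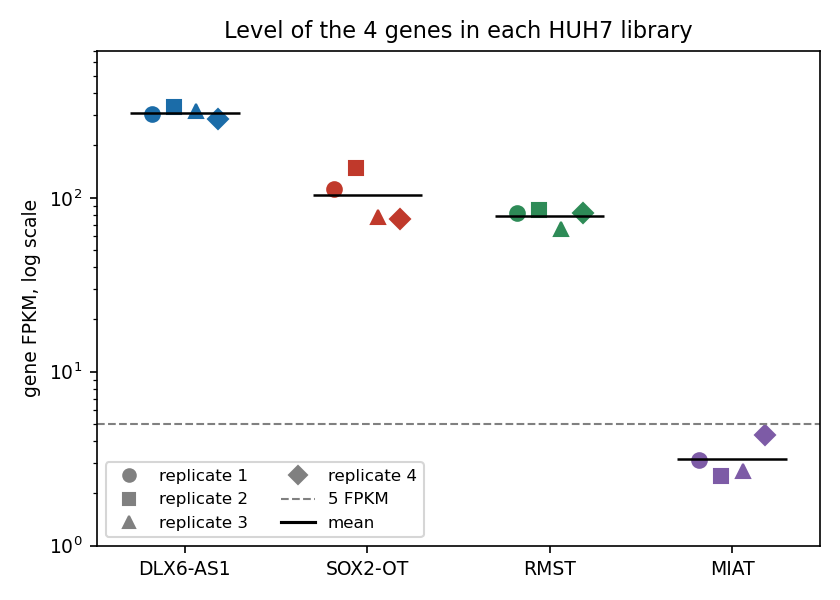
Gene level (summed FPKM of all isoforms, log axis) of the 4 genes in each HUH7 library; each marker is 1 library, the black bar is the mean and the dashed line marks 5 FPKM. DLX6-AS1, SOX2-OT and RMST lie above 5 FPKM in all 4 libraries, and MIAT lies between 2.51 and 4.34 FPKM.

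The level of 5 FPKM, above which the study kept transcripts, was the only threshold the design offered. The test was the one-sample moderated test of limma on log2(FPKM + 1), two-sided, with Benjamini-Hochberg adjustment over all genes of at least 0.1 FPKM. Of the 4 genes, 3 were called above 5 FPKM, beside 50.3% of the 7124 genes tested, so a call above 5 FPKM was common in this table. MIAT was the 1 gene called below, beside 38.5% of genes. DLX6-AS1 lay 5.69 ± 0.078 (SE) above the threshold on the log2(FPKM + 1) scale, with a limma adjusted p of 3.4e-17. SOX2-OT lay 4.07 ± 0.137 above it with an adjusted p of 6.3e-13 from limma, and RMST 3.73 ± 0.093 above it with an adjusted p of 1.5e-14. MIAT had a log2 difference of -0.55 ± 0.220 and a limma adjusted p of 0.031, and this call was lost without replicate 1, 2 or 3 (adjusted p from 0.074 to 0.089).

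In the order of the 11466 genes matched, DLX6-AS1 held rank 310 and SOX2-OT rank 945, RMST rank 1156 and MIAT rank 4425. Within a library, DLX6-AS1 was 3.10-fold higher than SOX2-OT, with ratios between 2.24 and 4.06 in the 4 libraries, and 3.93-fold higher than RMST, with ratios between 3.46 and 4.74. SOX2-OT and RMST were neighbours whose order was not settled: SOX2-OT was higher in 3 of 4 libraries, with a mean ratio of 1.27 and a range of 0.918 to 1.74. RMST was 25.4-fold higher than MIAT, with ratios from 18.9 to 34.0. The within-library ratios were tested by flipping their signs in all ways (exact permutation test, two-sided), which cannot go below p = 0.125 with 4 libraries. The 6 pairs gave p = 0.25 for SOX2-OT and RMST and p = 0.125 for each other pair, or 0.25 and 0.15 after exact permutation p-values were adjusted over the 6 pairs.

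The named genes nearest in level put these values in context. DLX6-AS1 stood between LINC02242 at 309.2 ± 39.8 FPKM and DYNLRB2-AS1 at 308.1 ± 77.3 FPKM, with DDX19A-DT at 310.2 FPKM and SNHG9, a host gene of small nucleolar RNA, at 308.0 FPKM just beyond. SOX2-OT stood among SDAD1-AS1 (103.8 FPKM), LINC01247 (103.8), PAXBP1-AS1 (103.6) and LINC01359 (103.1). RMST stood among HAND2-AS1 (79.8 FPKM), LINC01647 (79.7), CACNA2D1-AS1 (78.8) and LINC01299 (78.6). MIAT stood among BET1 (3.17 FPKM), PRPF19-DT (3.17), LINC02806 (3.16) and CHFR-DT (3.15). All these neighbours were picked by their mean FPKM, so their closeness in level follows from that choice. Likeness of pattern was not measured, since 4 libraries of 1 group are too few for it.

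The spread between libraries set SOX2-OT apart from the others. Its coefficient of variation (CV) was 33.7%, against 6.77% for DLX6-AS1, 10.9% for RMST and 26.1% for MIAT. Among the 1084 genes within 2-fold of its level, the median CV was 11.9%, and 13 genes had a higher CV than SOX2-OT. For their own levels the other genes were ordinary or quiet: 14.2% of genes above 100 FPKM had a lower CV than DLX6-AS1, 30.4% of genes between 20 and 100 FPKM a lower one than RMST, and 18.6% of genes between 1 and 5 FPKM a lower one than MIAT. SOX2-OT was higher in replicates 1 and 2 than in replicates 3 and 4. The letters in the sample titles, which the submitters describe as internal names, do not follow this split, since each letter held 1 of the higher and 1 of the lower libraries.

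**Figure D2:**
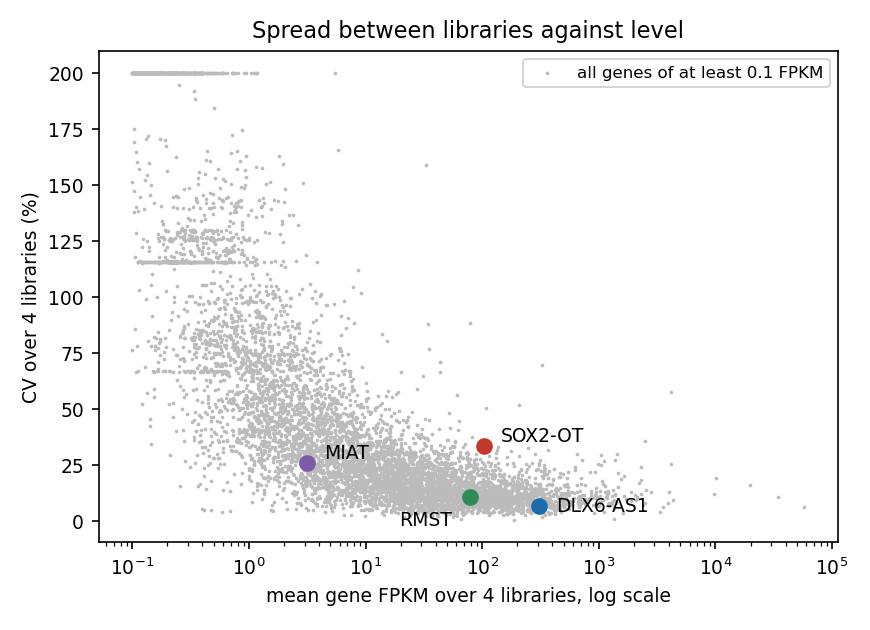
CV of the gene level over the 4 libraries (%, linear axis) against mean gene FPKM (log axis); grey points are all genes of at least 0.1 FPKM and coloured points the 4 genes. SOX2-OT, at a CV of 33.7%, lies above most genes of its level, while DLX6-AS1 at 6.77% and RMST at 10.9% lie inside the cloud.

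At the isoform level, the models at 0 belonged mostly to SOX2-OT and MIAT. Of the 47 transcripts, 18 were above 0 in at least 1 library and 29 were listed at 0 in all 4. Over the whole table, 7288 of the 18373 matched transcripts were at 0. The 29 were 12 of SOX2-OT, 16 of MIAT, 1 of DLX6-AS1 and 0 of RMST. In all, 11 of the 18 were above 0 in every library. The 16 members with a mean of at least 0.1 FPKM were tested against 5 FPKM with limma, adjusted over 11435 transcripts. There 6 were called above, or 37.5% of the 16, beside 41.9% of all transcripts tested. Another 6 were called below, beside 43.3%, and 4 could not be placed on either side. The 6 above were 2 isoforms of DLX6-AS1, 1 of SOX2-OT and 3 of RMST.

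**Figure D3:**
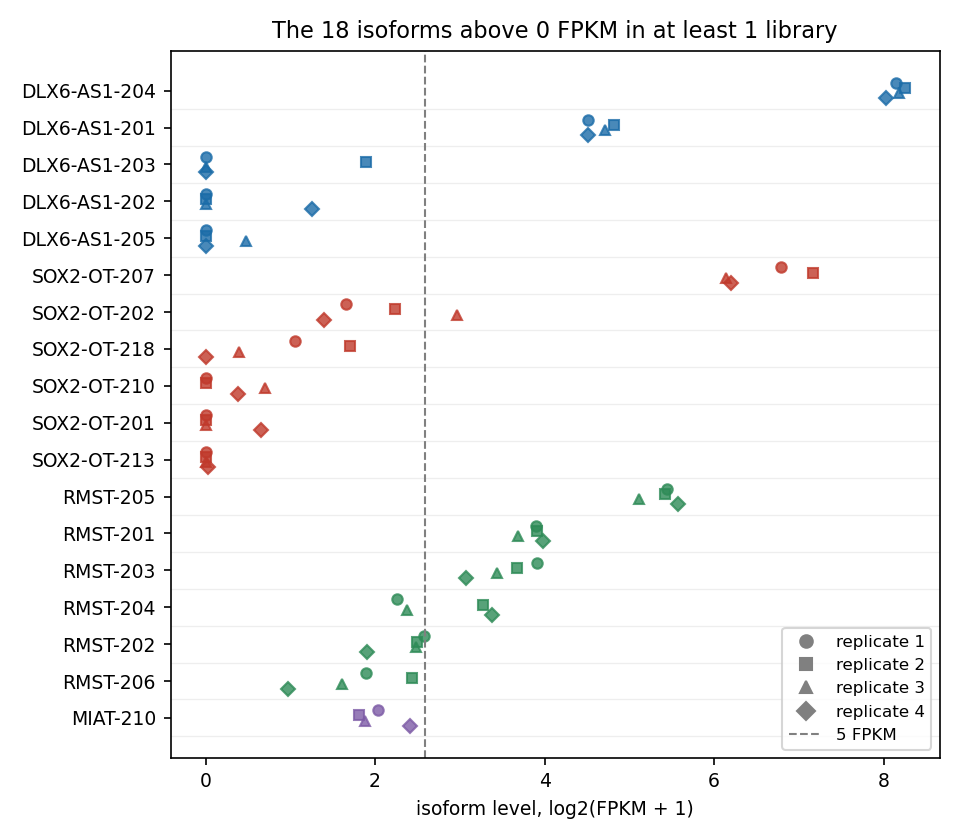
Level of the 18 isoforms above 0, as log2(FPKM + 1), grouped by gene; each marker is 1 library and the dashed line marks 5 FPKM. DLX6-AS1-204, SOX2-OT-207 and RMST-205 lead their genes in all 4 libraries, and MIAT-210 is the 1 MIAT isoform shown.

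DLX6-AS1 lies on the minus strand of chromosome 7 (GRCh37, 96584453 to 96643400), and 1 short isoform held most of its level. DLX6-AS1-204 (ENST00000437541), of 1161 nt in 2 exons, had 283.09, 303.51, 288.36 and 260.05 FPKM in replicates 1 to 4, or 91.9% ± 0.763 of the gene. DLX6-AS1-201 (ENST00000430027), of 15364 nt in 3 exons, had 21.77, 27.32, 25.31 and 21.74 FPKM. The libraries lay close together for both isoforms, and their values did not overlap: DLX6-AS1-204 was 11.8-fold higher per length, with ratios from 11.1 to 13.0. The exact sign-flip permutation p was 0.125 for this pair, as for the leading pairs of SOX2-OT and RMST, which is the smallest it can be with 4 libraries. In limma, DLX6-AS1-204 lay 5.57 above 5 FPKM on the log2(FPKM + 1) scale (adjusted p = 6.3e-12) and DLX6-AS1-201 lay 2.05 above it (adjusted p = 1.6e-07).

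The remaining DLX6-AS1 models were near 0. DLX6-AS1-203 was above 0 in replicate 2 alone at 2.71 FPKM, DLX6-AS1-202 in replicate 4 alone at 1.38 FPKM and DLX6-AS1-205 in replicate 3 alone at 0.39 FPKM. DLX6-AS1-206 was listed at 0 in all libraries.

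The second exons of both leading isoforms overlap and are joined to different first exons. The second exon of DLX6-AS1-204 (932 nt) lies in isoforms that together carried 99.6% to 99.8% of the gene's FPKM. Its first exon (229 nt) carried about 91.9%. DLX6-AS1-201 starts farther upstream, has a second exon of 1245 nt that begins 4 nt earlier and runs 309 nt farther, where the summed FPKM was 24.04, and goes on into a last exon of 13978 nt, where the summed FPKM was between 24.04 and 25.2.

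The coding gene DLX6 lies on the other strand inside the intron between these exons, 32237 nt long in DLX6-AS1-204. No exon of a coding gene overlapped DLX6-AS1-204 or DLX6-AS1-201 on either strand. Which isoform a read came from was harder to tell. Of the 1137 25-mers of DLX6-AS1-204, 22 (1.93%) occur in no other transcript of the table, against 10147 of 15340 (66.1%) for DLX6-AS1-201. RSEM, the program that gave the values, divides shared reads by estimation. The 22 are counted against all transcripts of the table. Against DLX6-AS1-201 alone, the whole first exon of DLX6-AS1-204 (229 nt) is distinguishing, since DLX6-AS1-201 does not hold it. Other isoforms that hold parts of this exon were at or near 0.

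The second exon also holds repeated sequence. In DLX6-AS1-204, 274 nt of exon 2 (29.4%) are covered by 24-mers found at least 10 times in the GRCh37 genome, against 2 nt of exon 1. The longest such stretch has 248 nt. Its most frequent 24-mer has 82532 copies, and 10.9% of the 25-mers of DLX6-AS1-204 occur in transcripts of other genes of the table.

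Across the table, transcripts with more repeated sequence stood higher. Among transcripts of at least 0.1 FPKM, 74.2% of the 3168 with 5% to 25% of repeated 24-mers had a mean above 5 FPKM, against 29.4% of the 6444 with less than 5%. The share for DLX6-AS1-204 was 18.6%, and the part of the repeat in its level was not tested. DLX6-AS1-201 holds the same stretch of 248 nt. In it, 1092 of 15364 nt are covered by repeated 24-mers, which make up 4.33% of its 24-mers. It was above 5 FPKM in all 4 libraries, and the part of the repeat in its level was not tested either.

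SOX2-OT lies on the plus strand of chromosome 3 (GRCh37, 180707558 to 181508734), and its level came almost wholly from the model SOX2-OT-207. SOX2-OT-207 (ENST00000476964), of 3226 nt in 3 exons, had 109.52, 143.07, 69.57 and 72.65 FPKM in replicates 1 to 4, or 94.9% ± 3.36 of the gene. Replicates 1 and 2 were high and replicates 3 and 4 low, so the spread of the gene is that of this isoform. SOX2-OT-202 (ENST00000461063) came next with 2.15, 3.72, 6.85 and 1.63 FPKM. It was highest in replicate 3, where SOX2-OT-207 was lowest. SOX2-OT-218 had 1.07, 2.26, 0.31 and 0 FPKM, SOX2-OT-210 was above 0 in 2 libraries, and SOX2-OT-201 and SOX2-OT-213 in 1 library each. The other 12 models were listed at 0.

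In limma, SOX2-OT-207 lay 3.99 above 5 FPKM on the log2(FPKM + 1) scale (adjusted p = 1.1e-08), and SOX2-OT-202 was not placed (adjusted p = 0.13). SOX2-OT-207 was 30.7-fold higher than SOX2-OT-202, with ratios between 10.2 and 50.9. Both models share no exon: SOX2-OT-202 uses exons between 180707569 and 180893607, upstream of the first base of SOX2-OT-207.

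The exons of SOX2-OT in use thus formed a small part of the locus. Segments above 5 FPKM covered 3226 of the 9734 exonic nt of the table's models (33.1%), which is the whole of SOX2-OT-207, and 4061 nt (41.7%) were at 0. The first exon (chr3:181328122-181328533) and the second (chr3:181328649-181328717) carried 98.7 and 99.6 FPKM, and the last (chr3:181457357-181460101, 2745 nt) 99.6 FPKM. The intron between the second and the last exon has 128639 nt and holds SOX2 on the same strand, with no exon shared. The join across SOX2 is shown because this isoform skips the gene there, with the second exon in lower case and the last in capitals:
SOX2-OT-207 exon 2 to 3: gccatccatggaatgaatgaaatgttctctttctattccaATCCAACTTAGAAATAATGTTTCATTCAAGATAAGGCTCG

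Repeated bases made up 23.1% of the first exon of SOX2-OT-207 and 3.68% of its last exon. A CA-rich stretch of 63 nt in the last exon matched transcripts of 65 other genes, 5 of them in the table. Distinguishing letters were few here as well: 102 of its 3202 25-mers (3.19%) occur in no other transcript of the table. The models that share the rest were SOX2-OT-218, SOX2-OT-213 and isoforms listed at 0. No other SOX2-OT isoform of the table holds the first 131 nt of SOX2-OT-207. Its longest repeated stretch, from position 67 to 161, lies partly in these 131 nt. The part of repeated sequence in the level of SOX2-OT-207 was not tested.

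The start of SOX2-OT-207 is also a start in RefSeq. One of the RefSeq promoter windows of SOX2-OT (250 bases before to 50 after a start, GRCh38.p14, chr3:181610084-181610383, plus strand) has its start at the first base of this isoform, while a window farther upstream (chr3:181056430-181056729) holds the starts of SOX2-OT-201, at 0.142 FPKM, and SOX2-OT-215, at 0. Both strands of the windows were searched for AACAATG (a core of SOX proteins), ATGCAAAT (the octamer), TAATTA (homeodomain), GTTAAT (part of the HNF1 motif), TTCAGCACC (part of the REST motif), CCAAT and TATAAA, of which none overlaps another in these windows. The window of SOX2-OT-207 holds AACAATG at position 267, within the transcribed part, and no other of the motifs. At any position, 3.34% of the 34943 RefSeq promoters hold AACAATG, and between 0.378% and 34.6% hold each of the other motifs. A match describes letters and not a bound site. The window is shown with this motif in capitals:
SOX2-OT promoter: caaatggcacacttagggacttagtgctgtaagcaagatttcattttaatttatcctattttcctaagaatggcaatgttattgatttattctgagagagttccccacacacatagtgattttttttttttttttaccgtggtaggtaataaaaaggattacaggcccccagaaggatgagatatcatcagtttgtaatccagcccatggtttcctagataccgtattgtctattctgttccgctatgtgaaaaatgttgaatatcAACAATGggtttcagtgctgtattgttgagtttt

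RMST, on the plus strand of chromosome 12, was the gene whose level was spread over most isoforms, and all 6 of its models were above 0 in every library. RMST-205 (ENST00000548886) had 42.70, 41.97, 33.73 and 46.53 FPKM in replicates 1 to 4, or 52.2% ± 3.29 of the gene. RMST-201 (ENST00000538559), the longest model with 14 exons, had 13.86, 14.02, 11.86 and 14.77 FPKM. Both were lowest in replicate 3 and highest in replicate 4, and RMST-205 was 3.01-fold higher in a narrow range of 2.84 to 3.15. In limma they lay 2.81 (adjusted p = 6.4e-09) and 1.28 (adjusted p = 1.7e-05) above 5 FPKM on the log2(FPKM + 1) scale.

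RMST-203 (ENST00000547946), a model of 1 exon annotated as a retained intron, had 14.04, 11.73, 9.81 and 7.42 FPKM. Its replicate 4 was the lowest, where RMST-205 and RMST-201 were highest. It lay 0.94 above 5 FPKM on the log2(FPKM + 1) scale in limma (adjusted p = 0.00093). RMST-204 (ENST00000547996), also annotated as a retained intron, had 3.79, 8.65, 4.2 and 9.45 FPKM, on both sides of the threshold, and was not placed (adjusted p = 0.39 in limma). RMST-202, between 2.76 and 4.97 FPKM, was not placed either, and RMST-206 at 2.54 ± 1.44 FPKM was called below in limma (adjusted p = 0.019), a call lost without replicate 1, 3 or 4 (adjusted p from 0.097 to 0.124).

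The exons of RMST were used unevenly along the gene. The exon at chr12:97924433-97924637 (205 nt) lies in 5 of the 6 models and carried 68.2 ± 8.34 FPKM, or 86.3% of the gene. The 3 exons from 97886959 to 97888659 carried 65.6 FPKM, and the pair from 97954315 to 97954759 carried 57.4 FPKM. The 5 exons at the start of RMST-201 (97825431 to 97857067) carried 13.6 FPKM. In the last part of the gene, the segment shared by RMST-201 and RMST-203 (97958516 to 97958793) carried 24.4 FPKM. No segment of the gene was at 0.

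**Figure D4:**
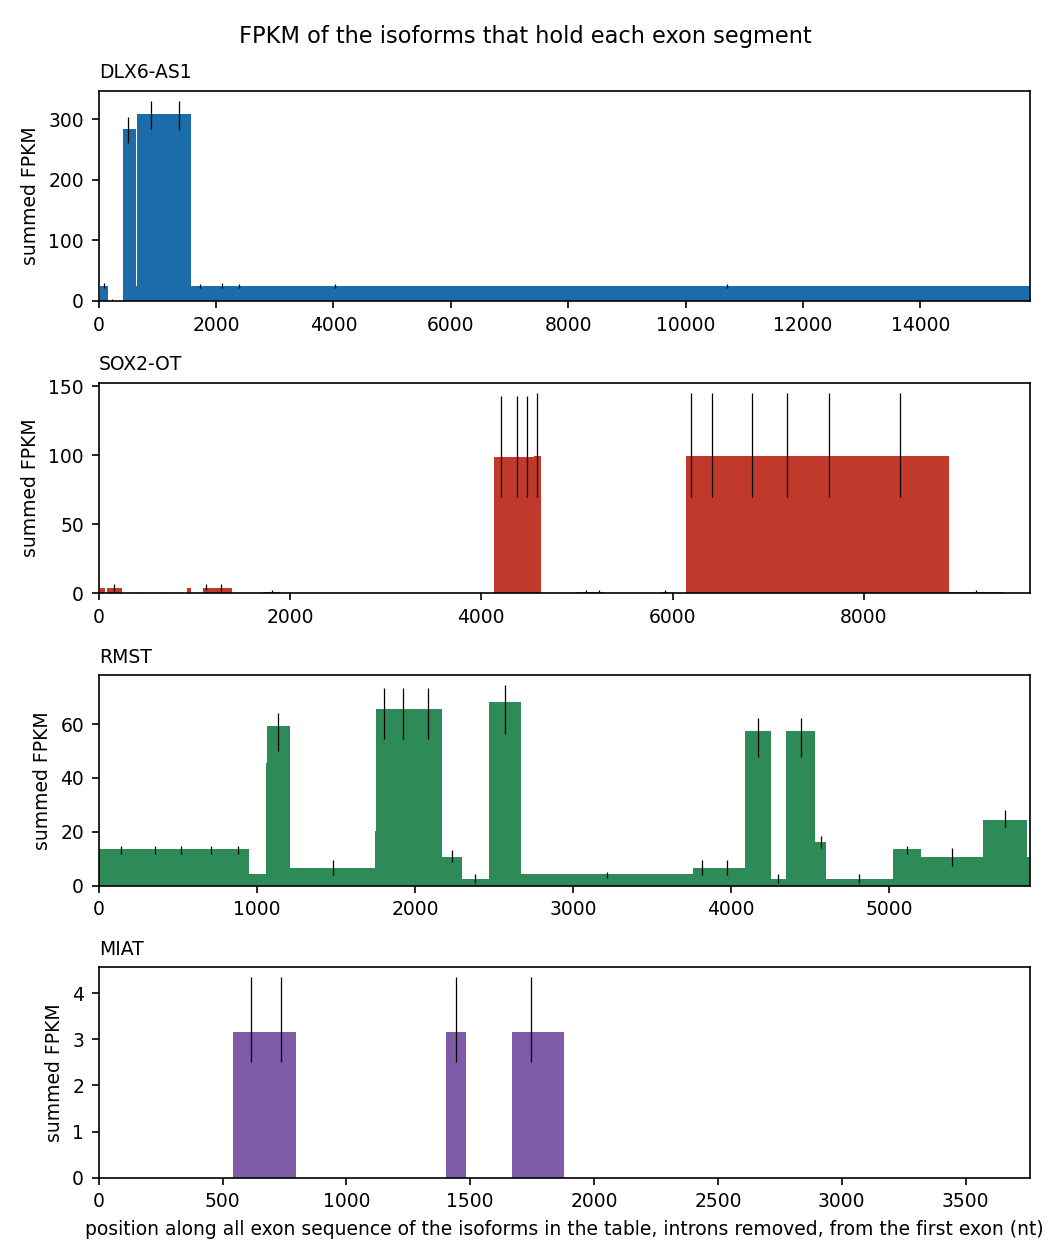
Summed FPKM of the isoforms that hold each exon segment (mean as filled area, range over the 4 libraries as thin vertical lines on segments over 60 nt), along all exon sequence of the table's isoforms with introns removed, in the direction of transcription. DLX6-AS1 peaks over exons of DLX6-AS1-204, SOX2-OT over the 3226 nt of SOX2-OT-207, RMST over a set of middle exons at 57.4 to 68.2 FPKM, and MIAT over the exons of MIAT-210 alone.

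The models behind these sums are the current ones. Only 7 of the 47 members have the same version number in the table and the annotation, and of these RMST-203 alone was above 0. For RMST-205 the difference can be read directly, because the study lists a sequence for this transcript, ENST00000548886.1, among the targets of its screen. Its first 399 letters were placed on the annotation, and the first 300 are shown with every other exon in capitals (chr12:97886265-97887739, plus strand, introns left out):
RMST-205 listed: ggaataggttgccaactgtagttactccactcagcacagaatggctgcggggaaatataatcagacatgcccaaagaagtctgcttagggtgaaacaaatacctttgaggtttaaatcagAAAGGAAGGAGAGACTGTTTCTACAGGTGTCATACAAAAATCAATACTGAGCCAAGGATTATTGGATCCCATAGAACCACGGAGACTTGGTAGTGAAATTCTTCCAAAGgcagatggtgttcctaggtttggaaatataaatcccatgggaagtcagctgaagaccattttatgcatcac

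The listed sequence follows the current RMST-205 for 120 letters and then leaves it. Its second block (97886955 to 97887063) begins 4 nt earlier than the exon of the current model, as in RMST-201. RMST-204 holds these 4 nt inside a longer exon (97886415 to 97887063). Its next block (97887669 to 97887780) begins later than the current exon at 97887653. All 399 letters match 9 other annotated RMST isoforms, none of them in the table. In the current model RMST-205 has no 25-mer of its own among the transcripts of the table, while in the listed letters 22 of 375 (5.87%) occur in no other RMST transcript of the table. The level of RMST-205 therefore belongs to the older model, and its exon ends may differ from those given above.

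RMST was free of the repeats found in the other genes. In 5 of its 6 models no 24-mer reached 10 copies in the genome, and in RMST-203 0.301% did. No stretch of 50 nt or more at 95% identity matched another gene. The microRNA genes MIR1251 and MIR135A2 lie in its introns on the same strand. A poly(A) signal (AATAAA or ATTAAA) in the last 50 nt was common, at 42.0% of all matched transcripts and 22.2% of the 18 members above 0. Among the RMST models, RMST-203 and RMST-202 held one, and the leading models RMST-205 and RMST-201 did not. RMST-203 ends in a poly(A) signal, AATAAA, 20 nt before its last base, shown in capitals because this model overlaps the end of RMST-201 and has its own end (chr12:97958754-97958813, plus strand):
RMST-203 end: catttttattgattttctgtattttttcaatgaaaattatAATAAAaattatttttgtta

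MIAT, on the plus strand of chromosome 22, was represented by a single model. MIAT-210 (ENST00000440347), of 543 nt in 4 exons, had 3.11, 2.51, 2.69 and 4.34 FPKM in replicates 1 to 4, and the other 16 MIAT isoforms were listed at 0 in all libraries. As a transcript it was not called below 5 FPKM in limma (log2 difference -0.55, adjusted p = 0.051), although the gene was, with the same values. The test over genes has its own estimate of spread and its own adjustment. Fragment totals per library were estimated from the steps of low FPKM. With these and the current length of 543 nt, the level of MIAT-210 stands for about 6.48, 5.62, 5.89 and 10.1 fragments, or 28.1 in all. These estimates rest on a model whose version differs from that in the table.

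No other MIAT isoform of the table holds the second exon of MIAT-210 (123 nt) or the first 13 nt of its first exon. In the second exon 122 of 123 nt (99.2%) are covered by 24-mers with at least 10 genome copies, against 2 of 130 nt in exon 1 and 0 nt in exons 3 and 4. The most frequent has 32179 copies. Of the 16 isoforms at 0, none had more than 0.155% of repeated 24-mers, against 7.88% in MIAT-210.

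Of the 519 25-mers of MIAT-210, 135 (26.0%) occur in no other transcript of the table. The first 149 nt of its exon 4 lie in all 17 isoforms and its exon 3 in 15 of them, yet the other isoforms were listed at 0. Of the 42 exon segments of MIAT, 35 were at 0, covering 3216 of 3759 nt (85.6%). The part of repeated sequence in the level of MIAT-210 was not tested.

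**Figure D5:**
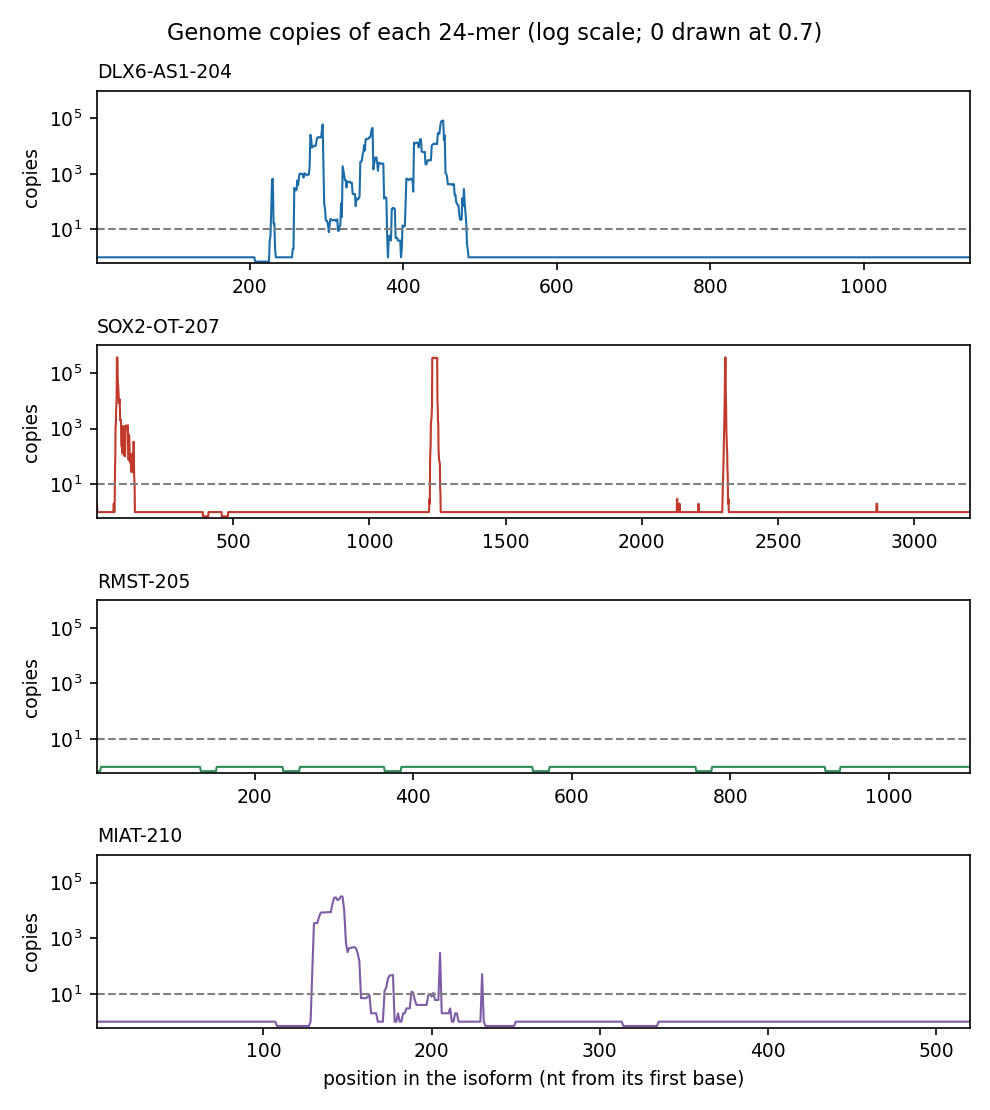
Copies in the GRCh37 genome (both strands, log axis) of the 24-mer that begins at each position of the leading isoform of each gene; the dashed line marks 10 copies, and 24-mers across exon joins, absent from the genome, are drawn at 0.7. DLX6-AS1-204 has a repeated stretch of 248 nt, SOX2-OT-207 short peaks, RMST-205 none and MIAT-210 a peak over its second exon.

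The TACTAAC repeats for which MIAT is known were outside the reach of the table. None of the 17 table isoforms holds TACTAAC on its own strand, and 4 of the 30 MIAT isoforms annotated today do, at up to 7 sites in MIAT-218 between 27067382 and 27068188. MIAT RNA with these repeats could thus be seen only through exons it shares with the shorter models. The last 120 nt up to the final site (chr22:27068069-27068188, plus strand) are shown with TACTAAC in capitals:
MIAT TACTAAC stretch: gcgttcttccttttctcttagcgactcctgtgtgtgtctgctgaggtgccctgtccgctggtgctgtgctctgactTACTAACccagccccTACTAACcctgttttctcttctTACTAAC

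Set beside other genes with several isoforms, the leading models differed in weight. Among 348 genes above 5 FPKM with at least 5 isoforms in the table, the leading isoform held a median of 63.9% of the mean FPKM. SOX2-OT-207 (95.3% of the mean) and DLX6-AS1-204 (91.9%) lay above that median, with 84.5% and 79.6% of these genes below them. RMST-205 (52.3%) lay under it, with 34.2% of the genes below. MIAT itself was under 5 FPKM and is not among these genes.

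Other neural lncRNAs were mixed in level. A list of 35 neural lncRNA symbols gave 29 genes with a transcript in the table, the 4 genes included. Without the 4 genes, 25 were left, of which 10 were under 0.1 FPKM, 8 of them at 0. Of the 15 tested in limma, 10 were called above 5 FPKM, as were 50.3% of all genes tested. Another 3 were called below, beside 38.5% of all genes tested, and 2 on neither side. The median of the 25 genes was 0.725 FPKM, beside 0.74 FPKM over all 11466 matched genes, and with the 4 genes it was 4.95 FPKM. Beyond the 4 genes, CRNDE had 310.3 ± 20.6 FPKM and OIP5-AS1, a lncRNA of many tissues, 901.5 ± 32.1 FPKM. PWRN1, of the Prader-Willi region, had 52.7 ± 16.1 FPKM, OTX2-AS1, opposite the homeobox gene OTX2, 51.0 ± 12.3 FPKM, and MEG3, an imprinted lncRNA, 50.6 ± 3.28 FPKM. NEAT1, which the list also counts, had 50.8 ± 14.1 FPKM and was called above 5 FPKM.

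Of 9 lncRNA genes taken to define neurons or neural progenitors, 5 were tested and 2 were called above 5 FPKM in limma, beside 50.3% of all genes tested. These were TUNAR at 18.4 ± 3.23 FPKM and MIR9-1HG, a host gene of the neural microRNA miR-9, at 13.6 ± 2.95 FPKM. MIR137HG, host of the neural miR-137, also had a mean above 5 FPKM, 6.42 ± 1.34 FPKM, but was not called (adjusted p = 0.18). LINC00461 at 0.725 FPKM and HAR1B at 0.105 FPKM were the 2 called below, beside 38.5% of all genes tested. MIR9-3HG, HAR1A and SOX1-OT were at 0, and MIR124-1HG, host of the neuronal miR-124, had 0.080 FPKM. The summed level of the 9 genes was between 31.1 and 45.0 FPKM over the libraries. Of 13 measured liver lncRNAs, 12 were tested and 8 were called above 5 FPKM, beside 50.3% of all genes tested. Among these 8 were HULC at 693.2 ± 64.8 FPKM and LINC00261 at 376.9 ± 27.7 FPKM. Another 4 were called below, beside 38.5% of all genes tested. Among these 4 were FAM99A at 0.238 FPKM and FAM99B at 0.410 FPKM, so the liver list was mixed in level too.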

How the data were processed

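The authors deposited FPKM of non-coding transcripts, 1 column per library for 4 libraries, made with Bowtie 1.01 and RSEM 1.2.3 on hg19 (GRCh37) and an Ensembl release 68 non-coding annotation. Coding transcripts were not in that reference, so reads of coding RNA could be placed on similar non-coding sequence. Per the labels the libraries were strand-specific after ribosomal depletion, although the molecule is given as polyA RNA. The strand setting of the alignment is not given in the sources used here. The members and gene lists were chosen with earlier results of these data known.

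Identifiers were matched without version to GENCODE release 44 on GRCh37 (18373 of 19835 matched). Gene FPKM are sums over transcripts. Tests used limma 3.58.1 in R 4.3.3 with a mean-variance trend on log2(FPKM + 1), transcripts of at least 0.1 FPKM and a threshold of 0.05; this scale understates changes of low transcripts. The script was tested on simulated data. Within-library ratios had exact sign-flip permutation tests. Repeated 24-mers had at least 10 copies in GRCh37, and shared sequence was found with blastn 2.17.0 (50 nt, 95% identity). Exon use is the summed FPKM of isoforms that hold a segment and is no measured coverage. All rows of the 4 genes are accounted for. Values per library are given for isoforms with a mean of at least 5 FPKM and for each leading isoform, other isoforms mostly by range, and 2 named genes on each side as neighbours in level. Depth is not given by FPKM. Steps in the FPKM of low transcripts gave estimates of 4500000 to 5030000 fragments per library, counting those placed on the non-coding reference. Of low values, 66.9% to 67.6% lay within 0.05 of a whole fragment. The estimates were sought within a set range. Promoter sequences are from RefSeq (GRCh38.p14). Alternatives covered the pseudocount, the filter, the level, library scaling, the trend, isoform choice and leaving out each library. Some sequences and 1 gene of the liver list are not reported here by themselves.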

Additional observations from a re-analysis of the deposited data

Results flagged for a closer look

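Of 22 genes and isoforms above 0, 5 isoforms had 1 library far from the other 3, and each of these was listed at 0 in those 3 libraries. Chance gives about 1 such case in 20 groups for values without ties at 0. The isoforms were DLX6-AS1-203 at 2.71 FPKM in replicate 2, DLX6-AS1-202 at 1.38 FPKM in replicate 4, DLX6-AS1-205 at 0.39 FPKM in replicate 3, SOX2-OT-201 at 0.57 FPKM in replicate 4 and SOX2-OT-213 at 0.02 FPKM in replicate 4. None of the 4 genes and no isoform with a mean above 5 FPKM was among them.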

How the results depend on the processing

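No paired analysis was possible because the 4 libraries form 1 group. Of 426 alternative values for 43 results, 387 counted as unchanged. For a test against the level, this meant the same direction and the same side of the adjusted p threshold. For a ratio it meant the same direction alone. For counts, shares and exon segments it meant a value close to the main one. Member transcripts called above 5 FPKM numbered 6 and became 11 at a level of 1 FPKM; those below numbered 6 and became 3 at a level of 1 FPKM, 10 at a level of 10 FPKM and 2 with a filter of 1 FPKM, which tests 11 members. For MIAT the log2 difference turned to 1.04 at a level of 1 FPKM, where 0 of the 4 genes were called below. Leaving out 1 library gave MIAT differences from -0.67 to -0.47, and 0 or 1 genes below. As a transcript, MIAT-210 also had a difference of 1.04 at that level. Other values near the threshold changed sign with the level: RMST-202 (1.37), RMST-206 (0.73) and SOX2-OT-202 (1.07) at 1 FPKM, and RMST-204 (-0.64) at 10 FPKM. With isoforms of the same version alone, 1 gene (RMST) was called above, 0 were called below, and the most used RMST segment fell to 10.8 FPKM, since RMST-203 is then the only isoform left; the other genes, the order of the 4 genes and the leading isoform pairs gave no value there. The log2 ratio of SOX2-OT over RMST was 0.34 and stayed between 0.19 and 0.49 without 1 library; with the highest isoform of each gene in place of the sum it was 1.204 (exact permutation p = 0.125, the smallest possible), since the level of RMST is divided over 6 isoforms. The estimate of about 4500000 to 5030000 fragments per library on the non-coding reference limits what can be said of MIAT and of isoforms under 1 FPKM.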
